A study of Mus musculus with 4 samples.

Results

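The anoctamins, also called the TMEM16 family, were described across 4 RNA-seq libraries of mouse trigeminal ganglion, the sensory ganglion of the face. The genes were taken by name, Ano1 to Ano10, and all 10 were found among the 56035 gene rows of the deposited table. One group, K823R, carried the Trpv1 allele that replaces a lysine of the TRPV1 channel with arginine, and the labels call this genotype TRPV1 K823R transgenic while the protocol calls it KI. Littermates without the allele formed the wild-type (WT) group. All mice were male C57BL/6 at 8 weeks of age, and each group had 2 libraries. Zygosity is not given in the sources used here. According to the protocol, 2 pairs of ganglia were taken, and it does not say whether that was per library or per genotype. Nothing says that libraries came from separate animals, so p-values below reflect variation among these 4 samples and that variation may be technical.

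Anoctamins are membrane proteins that work as dimers, and the family holds both ion channels and lipid scramblases. ANO1 and ANO2 are chloride channels opened by intracellular calcium, whereas ANO6 moves phosphatidylserine to the outer leaflet of the plasma membrane when calcium rises. In sensory neurons, which keep a high internal chloride concentration, opening of ANO1 lets chloride leave and depolarises the cell, and calcium entering through TRPV1 is one of the signals that can open it. Other members act mainly inside the cell or have less settled roles.

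The family is diverse in sequence, which matters here because the measured value of each gene depends on its reads being told apart from those of its relatives. In the deposited annotation, 10 of 10 members carried the Pfam anoctamin domain and 0 other gene rows did. Its dimerisation domain was annotated in 8 of 10 members and was absent from the annotation of Ano8 and Ano10. Over the 45 pairs of members, coding sequences from GENCODE M21 (GRCm38) were identical at 55.4% to 68.9% of their aligned bases. The closest pairs were Ano1 with Ano2 (68.9%) and Ano3 with Ano4 (68.6%), followed by Ano9 with Ano2, Ano3 and Ano1 (64.7%, 64.4% and 64.2%) and Ano5 with Ano6 (63.6%). For the 3 highest pairs that have no member in common, Ano1 with Ano2, Ano3 with Ano4 and Ano5 with Ano6, the most alike stretch of 60 coding bases is shown, because it is where reads of a pair would be hardest to assign. Bases in capitals differ between the members of a pair, and all sequences run 5′ to 3′ on the coding strand within 1 coding exon each.
Ano1: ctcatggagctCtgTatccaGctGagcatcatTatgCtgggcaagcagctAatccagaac
Ano2: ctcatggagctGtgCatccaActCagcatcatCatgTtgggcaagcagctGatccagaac
Ano3: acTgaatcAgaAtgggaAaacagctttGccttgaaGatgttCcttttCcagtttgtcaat
Ano4: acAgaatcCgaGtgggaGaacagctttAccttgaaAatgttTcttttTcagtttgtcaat
Ano5: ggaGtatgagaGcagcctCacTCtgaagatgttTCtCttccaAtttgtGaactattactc
Ano6: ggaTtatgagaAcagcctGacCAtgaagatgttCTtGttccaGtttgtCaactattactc
In GRCm38 these stretches lie at chr7:144608873-144608932 (minus strand) for Ano1, chr6:125982941-125983000 (plus) for Ano2, chr2:110682705-110682764 (minus) for Ano3, chr10:88982218-88982277 (minus) for Ano4, chr7:51576523-51576582 (plus) for Ano5 and chr15:95949510-95949569 (plus) for Ano6.

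Even there the members of a pair differed at 7 bases for Ano1 and Ano2, 8 bases for Ano3 and Ano4, and 10 bases for Ano5 and Ano6. The longest run of identical coding bases shared by any pair was 21, in Ano1 and Ano2. In the most alike window of 150 aligned bases, the length of 1 sequencing read, that pair reached 81.3% identity. In these alignments no pair of members shared a coding stretch as long as a read without differences. Outside the family, 1 gene matched a member's transcript over at least 150 bases at 95% identity or more. It was the antisense gene A130051J06Rik, which overlaps Ano6.

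**Figure D1:**
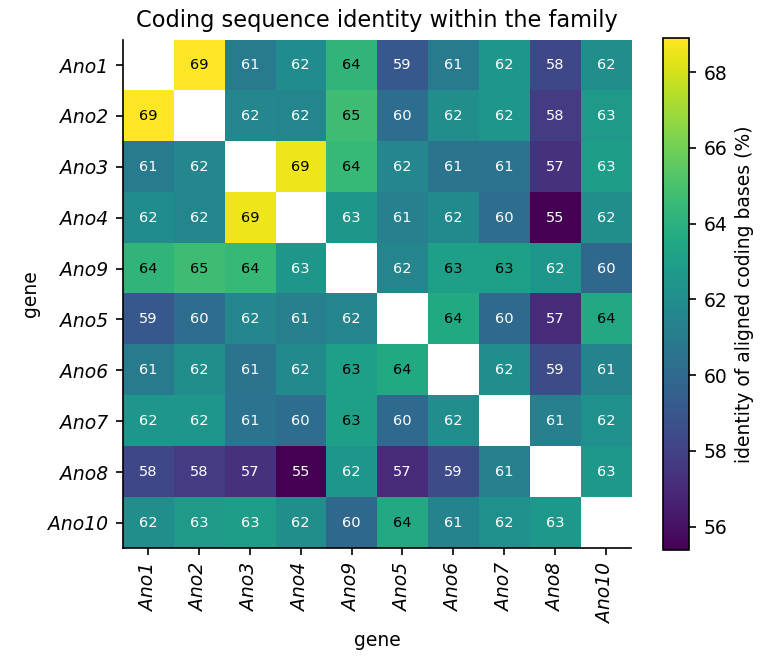
Identity of the coding sequences of each pair of anoctamin genes, as percent of aligned bases, with each pair shown on both sides of the diagonal and the colour giving the same value. The 2 brightest pairs are Ano1 with Ano2 (68.9%) and Ano3 with Ano4 (68.6%), and the lowest value is that of Ano4 with Ano8 (55.4%).

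The values are TPM, transcript abundances corrected for gene length and scaled to an equal total in each library. Levels can therefore be compared between genes only as far as the gene lengths hold, and the read depth behind them is unknown. The deposited length was 3149 bases for Ano6 and 2653 for Ano10, beside 12269 and 5910 annotated exonic bases. For Ano3 it was 6705 beside 7218, and for Ano1 4644 beside 6244. How far the choice of length shifts the levels was not tested. The 4 libraries listed 15131 to 15371 genes at 1 TPM or more. WT replicate 1 stood apart in its content of central glia, since the central myelin gene Mog was listed at 0 and the astrocyte gene Gfap stood at 3.72 TPM in it. Gfap was at 69.3 and 71.1 TPM in K823R and at 60.3 TPM in WT replicate 2. Trpv1 itself, the altered gene, stood at 40.9 and 35.0 TPM in K823R, against 39.2 and 30.6 TPM in WT (log2 difference 0.12, SE 0.15; limma adjusted p = 0.938). This expression check does not read the altered codon.

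Of the 10 anoctamin genes, 5 made up nearly all of the family's transcripts in the ganglion. Ano3, Ano10, Ano8, Ano4 and Ano6 together held 96.2% and 95.4% of the summed anoctamin TPM in the K823R libraries, against 96.2% and 96.3% in the WT libraries. Ano3 was the most abundant member, with a mean of 57.6 TPM over the 4 libraries, above 81.1% of the 15390 genes tested. It was followed by Ano10 (37.3 TPM), Ano8 (30.1 TPM), Ano4 (25.9 TPM) and Ano6 (25.7 TPM). Ano1, the calcium-activated chloride channel best known in nociceptors, was far lower at 4.50 TPM, above 24.0% of the genes tested. Ano5 (1.70 TPM), Ano7 (0.788 TPM), Ano2 (0.360 TPM) and Ano9 (0.0375 TPM) were lower still. Bulk tissue averages over all cells, so a gene that is abundant in few cells cannot be told apart from one that is scarce in many.

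Across the 4 libraries the order of the levels was firm at its breaks and loose within the middle group. Such ranges cannot show an error of gene length, which all libraries would share. The ranges over the 4 libraries did not overlap between Ano3 and Ano10, between Ano6 and Ano1, between Ano1 and Ano5, between Ano5 and Ano7, or between Ano2 and Ano9. Neighbours among Ano10, Ano8, Ano4 and Ano6 overlapped. Ano4 was above Ano6 in the 2 WT libraries and below it in the 2 K823R libraries. Their means over the 4 libraries differed by less than the spread between libraries. Ano7 and Ano2 overlapped as well. The level of Ano3 was 12.4 and 11.8 times that of Ano1 in the K823R libraries, against 13.2 and 14.0 times in the WT libraries. Trpv1 was 9.09 and 7.66 times as abundant as Ano1 in K823R, against 8.25 and 7.33 times in WT.

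**Figure D2:**
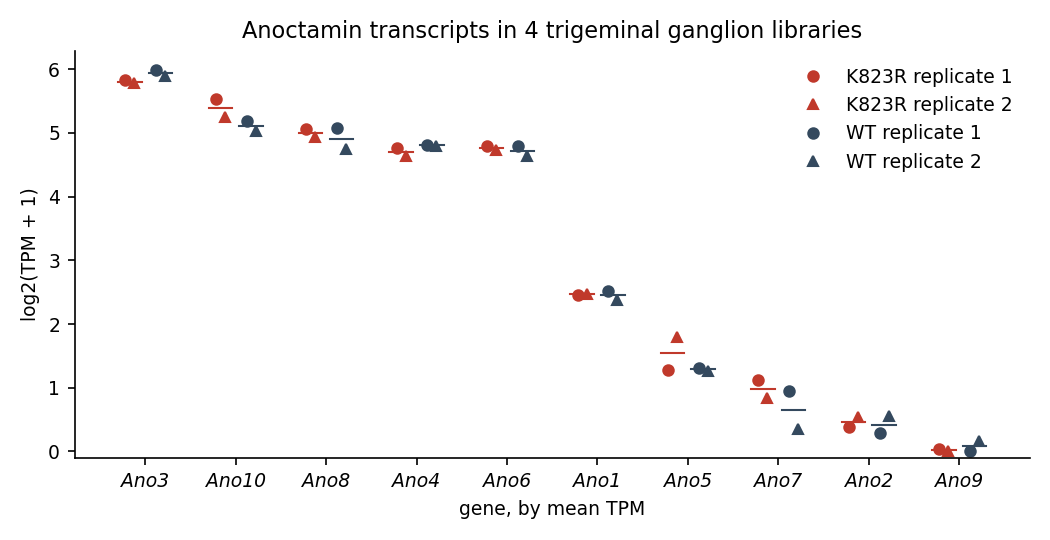
Level of each anoctamin gene as log2(TPM + 1), 1 point per library, with K823R libraries left of WT libraries and a line at the mean of each group (n = 2 each). The 5 genes from Ano3 to Ano6 sit together at the top, Ano1 lies in a step of its own near 4.50 TPM, and Ano7, Ano2 and Ano9 have means below 1 TPM.

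Between the genotypes, none of the 7 anoctamin genes abundant enough to test passed limma at an adjusted p below 0.05. The test was run on log2(TPM + 1) over the 15390 genes whose mean reached 1 TPM. In all of them, 0.0065% passed, which was 1 gene, and it was not an anoctamin. Of the 7 members, 3 had groups that did not overlap, which was the case for 34.0% of all genes tested, and 0 had an unadjusted p below 0.05, a level that 4.76% of all genes tested reached. Differences are K823R minus WT, and 5 members were above 0 and 2 below. Their median log2 difference was 0.05, beside 0.03 for all genes tested, of which 57.4% were above 0. The smallest adjusted p among the members was 0.918. The summed TPM of the 10 genes was 193.7 and 178 in K823R, against 191 and 173 in WT, and the groups overlapped. Without WT replicate 2 the median over the members was -0.055, so its sign rested on that library. In that fit the median of all genes tested was -0.0022.

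Of the tested members, Ano1 had the smallest difference between the genotypes in the main fit with all 4 libraries. The gene (ENSMUSG00000031075) lies on chromosome 7, minus strand, from 144588549 to 144751974. Ano1 stood at 4.50 and 4.57 TPM in K823R, against 4.75 and 4.18 TPM in WT. Both K823R values lay inside the range of the WT values. The log2 difference was 0.02 with SE 0.14 (limma adjusted p = 0.992). Its 95% confidence interval of -0.36 to 0.40 corresponds to folds of 0.781 to 1.32 on the TPM + 1 scale. That range holds the differences compatible with these values and is not a limit of detection. With 2 libraries a group, changes beyond it could also go without a call. The Ano1 difference was -0.055 without WT replicate 2 and -0.026 after quantile normalization, where Ano6 was nearer 0 (-0.029 and 0.019). Without K823R replicate 1 Ano6 was also nearer 0 (0.010, against 0.029 for Ano1). Without K823R replicate 2 Ano5 was (-0.0058, against 0.011 for Ano1). Ano2 (chromosome 6, 125690419 to 126040126), the calcium-activated chloride channel of olfactory neurons and photoreceptors, was scarce. It stood at 0.300 and 0.450 TPM in K823R, against 0.220 and 0.470 TPM in WT, and lay below the level tested.

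Ano3 and Ano4, the pair closest in sequence after Ano1 and Ano2, were both lower in K823R without overlap between the groups, and neither passed the test. ANO3 is known in rat sensory neurons as a partner of the sodium-activated potassium channel Slack, and human ANO3 is a dystonia gene. Ano3 (ENSMUSG00000074968; chromosome 2, 110655201 to 110950923) stood at 55.9 and 53.8 TPM in K823R, against 62.5 and 58.4 TPM in WT. Both K823R libraries lay below both WT libraries. Ano3 thus differed by -0.14 on the log2 scale, with SE 0.08 and a 95% interval from -0.35 to 0.07 (limma adjusted p = 0.918). Kcnt1, which encodes Slack, stood at 51.7 and 45.2 TPM in K823R, against 51.8 and 44.1 TPM in WT, and its groups overlapped. Ano4 (ENSMUSG00000035189; chromosome 10, 88948994 to 89344762), for which cation channel and scramblase activity have been described, stood at 26.0 and 23.8 TPM in K823R. Ano4 was at 27.1 and 26.8 TPM in WT, so K823R replicate 2 was the lowest library. Ano4 differed by -0.11, with SE 0.09 and a 95% interval from -0.34 to 0.12 (limma adjusted p = 0.918). Groups that did not overlap with K823R lower made up 14.6% of all genes tested, against 2 of the 7 members.

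Of the 5 abundant members, Ano10 had the widest genotype difference with all 4 libraries, though not without K823R replicate 1, where Ano4 was at -0.17. Human ANO10 is a cerebellar ataxia gene, and the protein is found largely inside the cell. Ano10 (ENSMUSG00000037949; chromosome 9, 122175874 to 122294423) stood at 45.3 and 37.2 TPM in K823R, against 35.4 and 31.5 TPM in WT. Both K823R libraries were above both WT libraries, by a margin of the lower K823R value over the higher WT value that was smaller than the gap between the K823R libraries. The means were 41.2 ± 5.78 TPM in K823R and 33.4 ± 2.76 TPM in WT (SD, n = 2 each), a ratio of 1.23. On the log2 scale Ano10 differed by 0.29, with SE 0.13 and a 95% interval from -0.05 to 0.63 (limma adjusted p = 0.918). Among the 9100 genes whose mean reached 10 TPM, 93.0% had a smaller absolute difference. Groups that did not overlap with K823R higher made up 19.4% of all genes tested, against 1 of the 7 members. With single libraries left out, the Ano10 difference ran from 0.15 without K823R replicate 1 to 0.43 without K823R replicate 2.

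Ano6 and Ano8 overlapped between the genotypes. Ano6 (ENSMUSG00000064210; chromosome 15, 95790843 to 95974751) is the scramblase gene whose loss in humans causes the bleeding disorder Scott syndrome. Ano6 stood at 26.8 and 25.4 TPM in K823R, against 26.7 and 23.9 TPM in WT (log2 difference 0.05, SE 0.10; limma adjusted p = 0.964). Its share of the summed family was the steadiest of the 5 abundant members, at 13.8% and 14.3% in K823R and 13.9% and 13.8% in WT. Ano8 (ENSMUSG00000034863; chromosome 8, 71476019 to 71485963) encodes a protein that tethers the endoplasmic reticulum to the plasma membrane. Ano8 stood at 32.3 and 29.7 TPM in K823R, against 32.6 and 25.9 TPM in WT (log2 difference 0.09, SE 0.14; limma adjusted p = 0.953). WT replicate 2 was the lowest library for both genes. Without it the differences were -0.029 for Ano6 and -0.071 for Ano8.

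Reads of some members may be mixed with those of genes on the opposite strand, because the strand setting of the counting is not given in the sources used here. Exons of Ano8 share 80 bases with Dda1, a component of a ubiquitin ligase complex, which was more abundant than Ano8. Dda1 stood at 109 and 104 TPM in K823R, against 96.3 and 88.8 TPM in WT (limma adjusted p = 0.918). Exons of Ano6 share 214 bases with A130051J06Rik and 122 bases with Gm49172, which stood at 3.18 and 5.17 TPM in K823R and 7.35 and 4.50 TPM in WT. Ano3 shares 61 exonic bases with Muc15, which stayed at 0.470 TPM or less in every library. For Ano1, Ano2, Ano4, Ano5, Ano7, Ano9 and Ano10 no shared exonic base was annotated.

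The low members gave the least certain values. Ano5 (ENSMUSG00000055489; chromosome 7, 51511029 to 51598709) is a human muscular dystrophy gene. Ano5 stood at 1.43 and 2.47 TPM in K823R, against 1.47 and 1.41 TPM in WT. K823R replicate 2 alone was high, and the other 3 libraries were nearly equal. The log2 difference was 0.25 with SE 0.27 (limma adjusted p = 0.935), and it was -0.0058 without K823R replicate 2. Of the 10 skeletal muscle markers, Pvalb, which sensory neurons also express, stood at 154 to 166 TPM and the myosin light chain Mylpf at 1.66 to 3.54 TPM, while the creatine kinase Ckm reached at most 0.850 TPM. The part of muscle RNA in the Ano5 values was not tested. Ano7 (chromosome 1, 93373930 to 93404303), known from the human prostate, stood at 1.17 and 0.780 TPM in K823R, against 0.930 and 0.270 TPM in WT. Ano9 (chromosome 7, 141101212 to 141117806), assigned scramblase activity in the deposited gene ontology terms, stood at 0.0300 TPM and was listed at 0 in K823R. In WT it was listed at 0 and stood at 0.120 TPM. With no filter on low values, limma gave adjusted p of 0.881 for Ano7, 0.967 for Ano2 and 0.903 for Ano9.

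**Figure D3:**
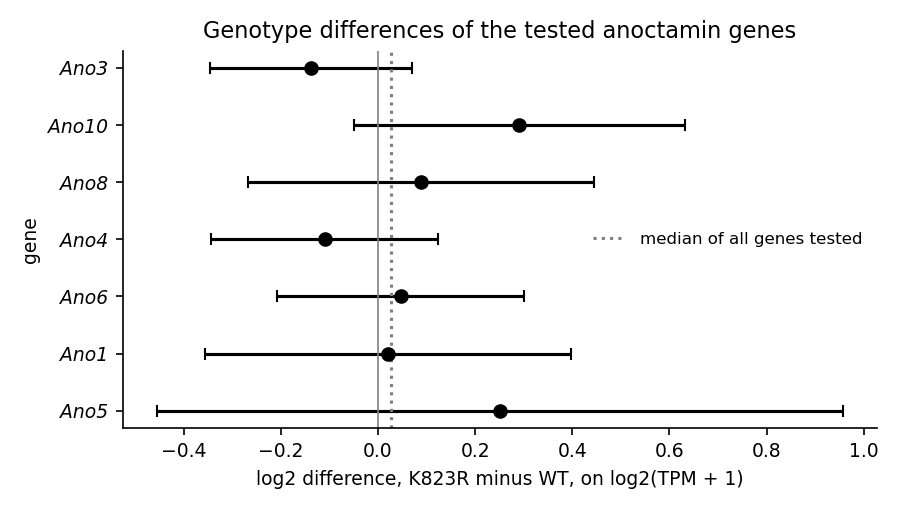
Log2 difference of K823R minus WT on log2(TPM + 1) for the 7 tested anoctamin genes, with 95% confidence intervals from limma (n = 2 libraries each) and a dotted line at the median of all genes tested, 0.03. Each interval includes 0; that of Ano10 reaches from -0.05 to 0.63 and that of Ano5, the scarcest gene tested, is the widest.

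The cell types of the ganglion were read beside these genes from summed marker levels. The 12 neuron markers summed to 15712 and 15223 TPM in K823R, against 16327 and 14230 TPM in WT, and the groups overlapped. The 6 satellite glia markers summed to 10753 and 12027 TPM in K823R and to 10827 and 10760 TPM in WT. Apoe made up most of each sum, at 10044 and 11139 TPM in K823R, against 10218.5 and 9905 TPM in WT. Of the 6 genes, 2 had a log2 difference above 0 and 4 below. Without overlap 2 were lower and 0 higher, against 14.6% and 19.4% of all genes tested. The 10 Schwann cell markers summed to 14894 and 17635 TPM in K823R, against 12158 and 14917 TPM in WT. The 12 central glia markers summed to 559.5 and 661 TPM in K823R, against 285 and 547 TPM in WT. Central glia was thus the only list of these 4 whose sums did not overlap. In 9 of its 10 tested genes K823R was higher without overlap, against 19.4% of all genes tested. Cnp made up most of each sum and overlapped, at 306 and 353 TPM in K823R, against 270 and 334 TPM in WT. Among the other lists, macrophage markers summed to 90.4 and 119.7 TPM in K823R, against 55.5 and 89.2 TPM in WT. Smooth muscle and pericyte markers summed to 127 and 119 TPM in K823R, against 101 and 114 TPM in WT. Pituitary markers, from a neighbouring gland, summed to 23.8 and 20.05 TPM in K823R, against 2.54 and 4.80 TPM in WT. These 3 lists were thus higher in K823R without overlap. Gh made up most of the pituitary sum in K823R, at 17.1 and 12.0 TPM, against 0.250 and 1.15 TPM in WT. Skeletal muscle markers, of which Pvalb made up most, summed to 162 and 166 TPM in K823R and to 168 and 171 TPM in WT. Of the marker lists, only this sum was lower in K823R without overlap. The sums of nociceptor, fibroblast, endothelial, epithelial and erythroid markers overlapped. Fibroblast and meningeal markers were at 2851 and 912 TPM in K823R, against 351 and 1083 TPM in WT. Within that sum Ptgds alone stood at 2374 and 472 TPM in K823R, against 109 and 577 TPM in WT. The part of cell makeup in the levels of Ano3, Ano4 and Ano10 was not tested.

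**Figure D4:**
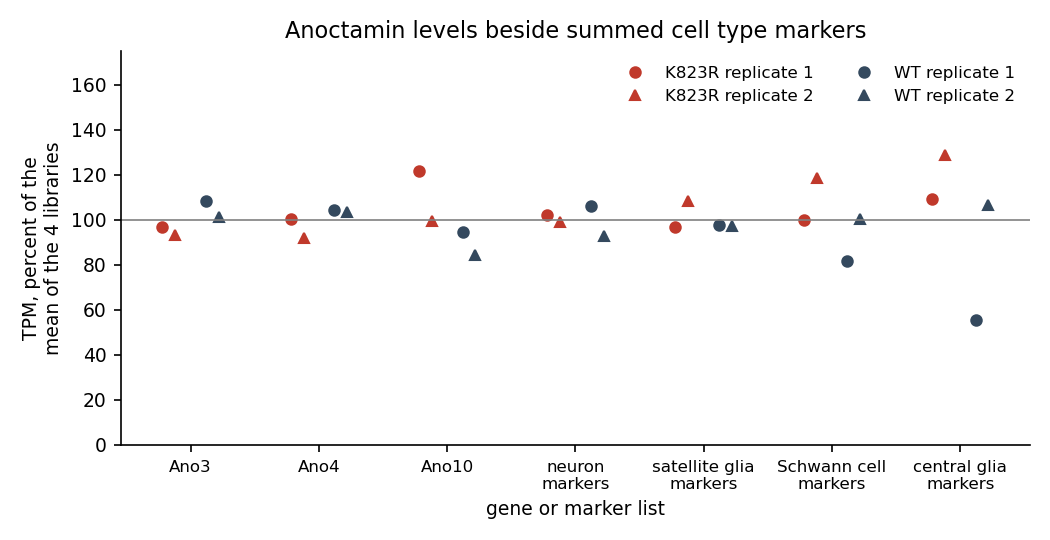
TPM of Ano3, Ano4 and Ano10 and summed TPM of 4 marker lists in each library, as percent of the mean of the 4 libraries, with K823R left of WT. Neuron markers overlap between genotypes, while WT replicate 1 is lowest for Schwann cell and central glia markers. Apoe makes up most of the satellite glia sum and Cnp most of the central glia sum.

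Genes that work beside the anoctamins were also without a call. Of 14 tested chloride channel genes of other families, 10 were above 0 and 4 below, with a median log2 difference of 0.05, and 0 passed limma. Leaving out WT replicate 2 gave a median of -0.026, leaving out K823R replicate 1 one of -0.0055, and leaving out WT replicate 1 one of 0.14. The smallest p was that of Ttyh2, of the tweety family, which stood at 11.4 and 13.3 TPM in K823R, against 8.71 and 8.72 TPM in WT (adjusted p = 0.918). Clcn6, an endosomal chloride transporter, stood at 42.9 and 42.2 TPM in K823R, against 37.7 and 38.2 TPM in WT. Lrrc8d, a subunit of the volume-regulated anion channel, had means of 35.2 TPM in K823R and 31.8 TPM in WT. The TMC and TMEM63 proteins are distant structural relatives of the anoctamins. Of 6 tested, 5 were above 0 and 1 below, with a median of 0.11, and 0 passed. That median was -0.033 without WT replicate 2 and 0.25 without WT replicate 1. Tmem63a, a mechanically gated cation channel, stood at 20.7 and 19.6 TPM in K823R, against 9.46 and 13.2 TPM in WT. The log2 difference of 0.79 with SE 0.17 did not pass (limma adjusted p = 0.918, unadjusted p = 0.00674), and WT replicate 1, poor in central glia transcripts, was the lowest library. Whether that glial content has a part in the Tmem63a values was not tested. Tmem63b stood at 93.4 and 85.8 TPM in K823R, against 87.4 and 76.7 TPM in WT, and Tmc7 at 7.28 and 7.38 TPM in K823R, against 7.28 and 5.80 TPM in WT. The groups overlapped for both, and without WT replicate 2 their log2 differences were 0.034 and 0.0087.

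Other phospholipid scramblases and flippases, which move lipids across the membrane as ANO6 does or in the opposite direction, also had 0 of 26 tested genes past the threshold. Of these genes 16 were above 0 and 10 below, with a median log2 difference of 0.02. Tmem30a, the shared subunit of most flippases, stood at 249 and 258 TPM in K823R, against 300.2 and 269 TPM in WT (limma adjusted p = 0.918). Atp8a2, a neuronal flippase, had means of 65.0 TPM in K823R and 72.4 TPM in WT, and Plscr4 of 6.95 and 8.30 TPM. Both K823R libraries lay below both WT libraries for these 3 genes, which were named for their small p. In the whole list 5 genes were lower and 2 higher without overlap, against 14.6% and 19.4% of all genes tested. The list's median was -0.053 without K823R replicate 1, -0.014 without WT replicate 2, 0.10 without K823R replicate 2 and -0.015 after quantile normalization.

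Activators and partners of anoctamins gave 22 of 31 tested genes above 0 and 9 below, with a median log2 difference of 0.02 and 0 past the threshold. The median was -0.020 without K823R replicate 1 and likewise -0.020 without WT replicate 2, and -0.0057 after median-of-ratios rescaling. Plcb3, a phospholipase C that links Gq-coupled receptors to calcium release, stood at 208 and 204 TPM in K823R, against 183.5 and 183.9 TPM in WT (limma adjusted p = 0.918). Stim1, the calcium sensor of the endoplasmic reticulum, had means of 27.8 TPM in K823R and 24.9 TPM in WT. Mrgpra3, the chloroquine receptor of itch neurons, stood at 8.19 and 5.66 TPM in K823R, against 10.4 and 8.39 TPM in WT. The inositol trisphosphate receptor gene Itpr1 stood at 10.04 and 8.28 TPM in K823R, against 7.88 and 8.42 TPM in WT, and overlapped. Slc12a2, the cotransporter that loads sensory neurons with chloride, stood at 38.9 and 40.3 TPM in K823R, against 37.3 and 42.9 TPM in WT. Its counterpart Slc12a5, which extrudes chloride in central neurons, was at 0.740 TPM or less in every library.

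**Figure D5:**
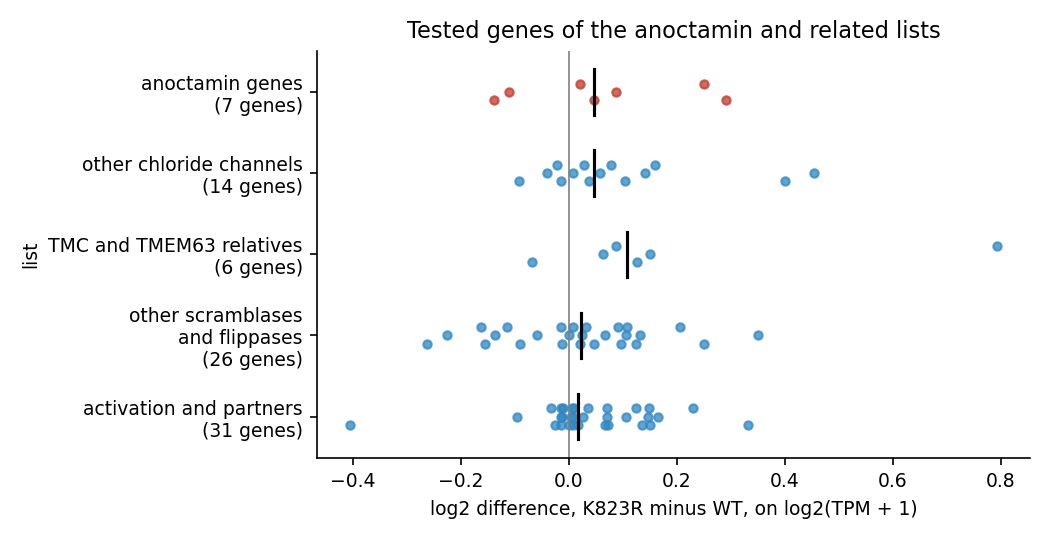
Log2 difference of K823R minus WT on log2(TPM + 1), 1 point per tested gene, for the anoctamins and 4 lists of related genes, with a black line at each list's median. The medians lie between 0.02 and 0.11, and the point farthest to the right is Tmem63a at 0.79.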

How the data were processed

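Per the labels' protocols, messenger RNA of trigeminal ganglia was sequenced in paired reads. Tools in the submitters' processing notes are edgeR, HISAT2, RSEM and fastp 0.19.5, with the build GRCm38.p6 and no roles; the annotation release, like strandedness and filters, is not given in the sources used here. Deposited values are TPM per gene for 4 libraries, grouped by sample title; 2 further columns, the authors' mean TPM per genotype, were not used. TPM keeps no read total, so counting intervals and detection floors cannot be set.

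Genes whose mean reached 1 TPM were fitted with limma 3.58.1 (R 4.3.3) on log2(TPM + 1) with a variance trend, two-sided. P-values were Benjamini-Hochberg adjusted over 15390 genes, with a threshold of 0.05. The pseudocount of 1 TPM understates changes of low genes. An exact test of 2 libraries against 2 cannot call a single gene, so p-values come from limma. It was tested on simulated data with independent noise for each gene, which held no shifts shared between the genes of a library. Alternatives were another pseudocount, other filters, rescaling, quantile normalization, no variance trend, a replicate block and leaving out each library. They were extended to genes other than the anoctamins after seeing the data.

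The members and gene lists were chosen with earlier results of these data known. All 10 anoctamins were named, with Trpv1, and the 3 genes with the smallest p from each related list. Kcnt1, Itpr1, Slc12a2, Slc12a5 and the genes that overlap members were added outside that rule. So were the marker genes Mog, Gfap, Apoe, Cnp, Gh, Ptgds, Pvalb, Mylpf and Ckm. Also named by rule were the 3 genes most like each of the 3 most abundant members. Positions and coding sequences come from GENCODE M21 (GRCm38). The coding sequence was the longest per gene, aligned globally with Biopython 1.88, and copies were searched with BLAST 2.17.0. Tables used pandas 2.3.3 and plots matplotlib 3.10.9 in Python 3.11.15.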

Additional observations from a re-analysis of the deposited data

How the results depend on the processing

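No anoctamin gene passed limma under any of the 11 alternatives, in each of which 0 members passed. For all genes the count past the threshold was 1, with 2 at a filter of 10 TPM and 0 with no filter, with no variance trend, with the replicate block and without any one library. The replicate block treated libraries of the same number as pairs. Across 15390 genes the deviations of K823R replicate 1 and WT replicate 1 from their group means correlated at r = 0.050. With 2 libraries a group this is a single value, so it cannot show whether same-numbered libraries belong together. With that block 0 anoctamin genes passed (smallest adjusted p = 0.748, unadjusted p = 0.022 for Ano10). The anoctamin median log2 difference ran from -0.055 to 0.12 over the fits that leave out a library (without WT replicate 2 and without WT replicate 1) and stayed above 0 in the other alternatives. In the same fits the median of all genes tested ran from -0.0022 (without WT replicate 2) to 0.050 (without WT replicate 1). After quantile normalization it was -0.0028. Ano3, Ano4 and Ano10 kept their direction in 11 of 11 alternatives each, Ano3 from -0.19 to -0.090, Ano4 from -0.17 to -0.049 and Ano10 from 0.15 to 0.43. Ano1 turned to -0.026 under quantile normalization. With a library left out, Ano1 ran from -0.055 to 0.096, Ano6 from -0.029 to 0.12, Ano8 from -0.071 to 0.25, Trpv1 from -0.048 to 0.30 (each lowest without WT replicate 2 and highest without WT replicate 1) and Ano5 from -0.0058 (without K823R replicate 2) to 0.51 (without K823R replicate 1); the cause was not tested. Adjusted p of the members ran from 0.656 to 1 over the alternatives. With 2 libraries a group, genes of at least 10 TPM had a median SE of 0.102 on the log2 scale. Depth is unknown.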

Other observations

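The balance between the 2 most abundant members was a ratio picked after its values were seen. Ano3 was 1.23 and 1.45 times as abundant as Ano10 in the K823R libraries, against 1.77 and 1.86 times in the WT libraries. The groups did not overlap, which follows from Ano3 being lower and Ano10 higher in K823R without overlap. The ratio was not tested.

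Over the 4 libraries, the genes whose log2(TPM + 1) followed Ano3 most closely by Pearson's r were Megf11, Ube2d3 and Ube3a. For Ano10 they were Scpep1, Paqr7 and Gpr162, and for Ano8 they were Cplx1, Med15 and Gnb1. With 4 points such likeness is common: of 9100 genes compared, 64 reached r of at least 0.99 with Ano3, 91 with Ano10 and 195 with Ano8.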
